A study of Mus musculus with 6 samples.

Results

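The growth hormone, STAT5 and IGF axis was examined as 10 genes whose symbols were looked up in the count table of liver tumors from WT and Nr2e3-/- mice. All 10 were among the 24063 genes of the table and all 10 passed the filter on low counts. They were the receptor Ghr, the transcription factors Stat5a and Stat5b, the circulating factor Igf1 with its carrier Igfals, the binding proteins Igfbp1 and Igfbp2, the feedback inhibitors Socs2 and Cish, and the repressor Bcl6. Tumors came from male C57BL/6 mice, 3 WT and 3 Nr2e3-/-, each sequenced as its own library. Both genotypes had received the liver carcinogen diethylnitrosamine (DEN, 25 mg per kg, intraperitoneal) at 15 days of age, and the tumors were collected at the 24-week time point. Nr2e3 encodes an orphan nuclear receptor, and the knockout was not restricted to hepatocytes by any driver named in the sources used here. The knockout line had been made separately, the WT mice of the study's acute injury experiment were bought from a supplier, and whether the tumor-bearing WT mice were littermates of the Nr2e3-/- mice is not given in those sources, and no liver without tumor was analysed here. The study sequenced these tumors to find what differs when tumors form without Nr2e3.

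Growth hormone binds its receptor on hepatocytes and activates the kinase JAK2, which phosphorylates STAT5A and STAT5B. STAT5B, the main form in liver, then induces Igf1, Igfals, Socs2 and Cish and represses Bcl6, while BCL6 binds sites much like those of STAT5 and represses genes there. In rodents the male pituitary releases growth hormone in pulses, so the level of a rapidly responding target depends on the time since the last pulse, and sex-biased liver genes follow the pattern of release.

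Total counts ranged from 15376261 in Nr2e3-/- replicate 1 to 28690279 in a WT library. Nr2e3 had 0 counts in all 6 libraries, which allows at most 0.105 to 0.195 CPM (CPM are counts scaled to a common library size, and the limit is from 3 counts per library, counting error only), so its own reads could not check the genotypes. The libraries were unequal in how often they stood at an edge, since Nr2e3-/- replicate 2 was the lowest or highest of the 6 for 48.2% of the 13572 genes tested and the other libraries for 18.5% to 39.2%. Hepatocyte markers such as Alb and Apoa1 summed to between 140000 and 184900 CPM over the 6 libraries. Genotypes were compared by the edgeR quasi-likelihood test (two-sided) on TMM-scaled counts, and adjusted p-values follow Benjamini and Hochberg over every gene tested. For 1 gene taken alone, exact permutation of 3 against 3 mice reaches no p-value below 0.1. In bulk tumors, fewer cells of a type cannot be told apart from less RNA per cell.

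None of the 10 genes passed an adjusted p-value of 0.05 between genotypes with edgeR, where 0.0958% of all genes tested did. DESeq2, which called 4.93% of all genes higher and 3.07% lower, and limma-voom, which called 0.0516%, also called 0 of the 10. In edgeR 3 of them, Igfals, Bcl6 and Stat5a, had an unadjusted p-value under 0.05, a share near that of all genes tested (21.5%). Non-overlapping groups were seen for 1 of the 10, Igfals, against 26.8% of all genes. The median log2 fold change of Nr2e3-/- over WT was 0.01, equal to that of all genes tested at 0.01, with 5 members above and 5 below 0 (50.8% and 49.2% of all genes). With upper quartile normalization 4 were above and 6 below 0. What set Socs2, Cish and Bcl6 apart from the other members was a wide spread among the 3 Nr2e3-/- tumors. They also varied more than most genes in WT tumors, where the SD of log2 CPM exceeded that of 97.6% of the genes tested for Socs2, 93.0% for Bcl6 and 88.7% for Cish. That WT spread was not particular to them, since the share was 93.7% for Igfbp1 and 91.9% for Igfbp2.

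**Figure D1:**
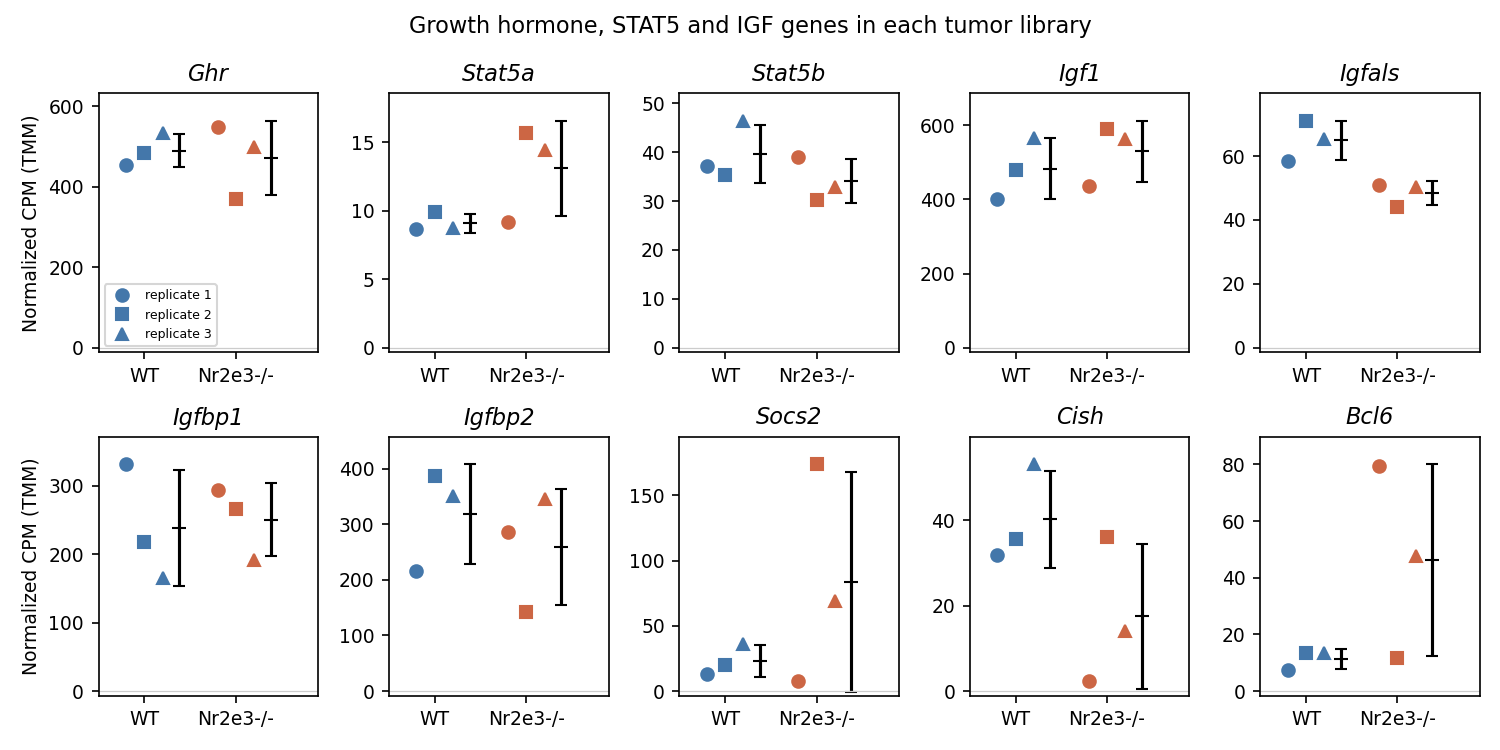
Normalized CPM (TMM, vertical axes from 0) of the 10 genes in each tumor library, with marker shapes for replicates 1, 2 and 3 and black bars for the mean and SD of each genotype (n = 3). Igfals is the gene whose groups do not overlap, and Socs2, Cish and Bcl6 spread widely among the Nr2e3-/- tumors.

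Ghr, the growth hormone receptor, lies on chromosome 15 (3317755 to 3583352 of GRCm38, minus strand). It was measured at 454, 483 and 533 CPM in WT replicates 1, 2 and 3 whereas Nr2e3-/- replicates 1, 2 and 3 had 548, 369 and 499 CPM. The groups overlapped, with the highest and the lowest value both in Nr2e3-/- tumors. On the log2 scale the fold change was -0.06 (standard error 0.17, 95% interval -0.45 to 0.34, edgeR adjusted p = 0.865). The sign was positive without WT replicate 3 (0.01) and without Nr2e3-/- replicate 2 (0.10).

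Stat5b and Stat5a, which transmit the receptor's signal to the nucleus, lie beside each other on chromosome 11 in opposite directions (100780731 to 100859004 and 100859351 to 100885169). Stat5b was measured at 37.2, 35.4 and 46.5 CPM in WT and at 39.1, 30.3 and 33.0 CPM in Nr2e3-/- tumors, and its groups overlapped. The log2 fold change of Stat5b was -0.22 (standard error 0.15, 95% interval -0.57 to 0.13, edgeR adjusted p = 0.418). Stat5a was measured at 8.64, 9.88 and 8.74 CPM in WT and at 9.14, 15.7 and 14.4 CPM in Nr2e3-/- tumors. Nr2e3-/- replicates 2 and 3 lay above all WT tumors, and replicate 1 lay among them. For Stat5a the log2 fold change came to 0.53 (standard error 0.21, unadjusted p = 0.0398, adjusted p = 0.211 from edgeR). Per kilobase of annotated exon, WT tumors held 7.16 ± 1.07 CPM (SD, n = 3) of Stat5b and 1.27 ± 0.0965 (SD, n = 3) of Stat5a, so Stat5b was the more abundant form. The pair has closely similar coding sequences, so a share of their reads may not be assigned with certainty, and the end of Stat5a overlaps Stat3 on the other strand while the strand setting of the counting is not given in the sources used here. Stat3 itself gave 0.86 on the log2 scale (edgeR adjusted p = 0.111).

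Igf1, the growth factor that the liver secretes in response to growth hormone, lies on chromosome 10 (87858265 to 87937047, plus strand, its start overlapped by the antisense gene Igf1os). It was measured at 402, 479 and 567 CPM in WT and at 436, 589.7 and 564 CPM in Nr2e3-/- tumors. The groups overlapped and the range was 1.41-fold within WT and 1.35-fold within Nr2e3-/- tumors. For Igf1 the log2 fold change came to 0.14 (standard error 0.18, 95% interval -0.28 to 0.55, edgeR adjusted p = 0.672).

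Igfals encodes the acid-labile subunit, which holds IGF1 in a long-lived complex in blood, and lies on chromosome 17 (24877844 to 24882011, plus strand). It was measured at 58.6, 70.8 and 65.3 CPM in WT and at 51.0, 44.1 and 50.4 CPM in Nr2e3-/- tumors. All 3 Nr2e3-/- tumors lay below all 3 WT tumors, as did those of 12.9% of all genes tested. Its mean was 64.9 ± 6.15 CPM (SD, n = 3) in WT and 48.5 ± 3.80 CPM (SD, n = 3) in Nr2e3-/- tumors. This was a log2 fold change of -0.42 (standard error 0.12, 95% interval -0.69 to -0.15, unadjusted p = 0.00766, adjusted p = 0.130 from edgeR). Over the alternatives the log2 fold change lay between -0.51 and -0.35 and the adjusted p-value between 0.0398 and 0.366.

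The binding proteins Igfbp1 and Igfbp2 carry IGF1 in shorter-lived complexes, and both are held down by insulin and raised by fasting in liver. Igfbp1 on chromosome 11 (7197787 to 7202546, plus strand) was measured at 332, 218 and 165 CPM in WT and at 294, 267 and 192 CPM in Nr2e3-/- tumors. All its Nr2e3-/- values lay inside the WT range, and the log2 fold change was 0.07 (standard error 0.27, 95% interval -0.57 to 0.72, edgeR adjusted p = 0.890). Igfbp2 on chromosome 1 (72824480 to 72852474, plus strand) was measured at 216, 387 and 350.1 CPM in WT and at 287, 143 and 346 CPM in Nr2e3-/- tumors. Its groups overlapped, with Nr2e3-/- replicate 2 the lowest of the 6. The log2 fold change of Igfbp2 was -0.30 (standard error 0.35, 95% interval -1.12 to 0.52, edgeR adjusted p = 0.636), and it was -0.0042 without that library.

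Per kilobase of annotated exon, the WT levels fell into tiers. Igfbp2 (172 ± 48.7 CPM per kilobase, SD, n = 3) and Igfbp1 (156 ± 55.9) came first and were within their spread of each other. Ghr (54.2 ± 4.43) and Igf1 (48.7 ± 8.32) followed and also did not differ beyond their spread. Igfals (20.5 ± 1.94) stood alone, and Stat5b (7.16) lay next to Cish (6.26 ± 1.76) within their spread. Socs2 (2.42 ± 1.26), Bcl6 (1.70 ± 0.509) and Stat5a (1.27) had the lowest levels, and the ranges of Socs2 and Bcl6 overlapped. These levels used the summed length of all annotated exons, so a gene with long rarely used exons appears lower than it is.

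STAT5 binds an element of 9 bases, TTCNNNGAA, in which N is any base, and BCL6 recognizes a closely related one. The element reads the same on both strands. It was looked for in promoter windows from RefSeq (GRCm38.p6, 250 bases before to 50 after each annotated start), which were given for 9 of the 10 genes in 16 windows, and Socs2 was not among them. In all 32851 windows, 8.3% held the element at least once and 0.457% at least 2 times. Of the members' windows, 5 of 16 held it, belonging to Cish, Igfals and Bcl6, and no window of Ghr, Stat5a, Stat5b, Igf1, Igfbp1 or Igfbp2 did. The stretches around these matches are shown because Cish and Bcl6 had the widest spread of the genes with a window and Igfals was the gene whose groups did not overlap, with the matched letters in capitals and the strand of the gene read 5′ to 3′. The pair in Cish lies at chr9:107296654-107296683 on the plus strand, its first matched base being base 1 of the annotated transcript. The 2 matches of Igfals lie at chr17:24877598-24877626 and chr17:24878163-24878191 on the plus strand, beginning 236 and 58 bases before 2 different annotated starts. The matches of Bcl6 lie on the minus strand at chr16:23988952-23988980, 118 bases before an annotated start, and at chr16:23981433-23981461, chr16:23981387-23981415 and chr16:23981353-23981381, which begin 168, 122 and 88 bases before another. That second window of Bcl6 was 1 of 11 in the whole table with 3 or more matches.
Cish pair: cagttTTCCTGGAAagTTCTTGGAAatctg
Igfals at 236: gatctataatTTCTCAGAAaagaggctga
Igfals at 58: ctgccaggtgTTCCTAGAAgaggccctgg
Bcl6 at 118: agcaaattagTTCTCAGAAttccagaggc
Bcl6 at 168: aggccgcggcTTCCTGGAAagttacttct
Bcl6 at 122: ggcaggagtgTTCTGTGAAatccttagag
Bcl6 at 88: atcgactacgTTCCGGGAAtgagagggct
A match describes the letters in these windows, and no binding was measured here.

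Cish, a STAT5-induced inhibitor that docks on the receptor, lies on chromosome 9 (107296659 to 107302784, plus strand) and holds the paired match printed above. It was measured at 31.8, 35.7 and 53.1 CPM in WT and at 2.38, 35.9 and 14.1 CPM in Nr2e3-/- tumors. Nr2e3-/- replicate 1 had 36 counts, the lowest of the 6 libraries, replicate 3 was also below all WT tumors, and replicate 2 lay among them. The highest Nr2e3-/- value was 15.1-fold the lowest, against 1.67-fold in WT. The SD of log2 CPM among Nr2e3-/- tumors was 1.96, larger than that of 99.7% of the genes tested. Its log2 fold change was -1.18 (standard error 0.74, 95% interval -2.93 to 0.57, edgeR adjusted p = 0.383), and it was -0.67 without Nr2e3-/- replicate 1 and -2.26 without Nr2e3-/- replicate 2. Gm17040 and Gm17041 overlap Cish on the other strand.

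Socs2, the suppressor of cytokine signaling whose loss gives oversized mice, lies on chromosome 10 (95383903 to 95417321, minus strand). It was measured at 13.0, 19.7 and 36.3 CPM in WT and at 7.68, 174 and 69.0 CPM in Nr2e3-/- tumors. The lowest and the highest of the 6 libraries were both Nr2e3-/-, replicates 1 and 2, and replicate 3 was also above all WT tumors. Within Nr2e3-/- tumors the range was 22.6-fold, against 2.80-fold in WT, and the SD of log2 CPM (2.30) exceeded that of 99.9% of the genes tested. The log2 fold change was 1.86 (standard error 0.92, 95% interval -0.31 to 4.03, edgeR adjusted p = 0.284). It was 2.41 without Nr2e3-/- replicate 1 (edgeR adjusted p = 0.0209) and 0.74 without Nr2e3-/- replicate 2 (edgeR adjusted p = 0.620), and the adjusted p-value lay between 0.0209 and 0.620 over all alternatives.

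Bcl6, the transcriptional repressor that growth hormone keeps low in liver, lies on chromosome 16 (23965050 to 23988866, minus strand), with matches in both windows shown above. It was measured at 7.45, 13.3 and 13.4 CPM in WT and at 79.3, 11.6 and 47.7 CPM in Nr2e3-/- tumors. Nr2e3-/- replicates 1 and 3 lay above all WT tumors and replicate 2 lay among them. The range was 6.83-fold in Nr2e3-/- and 1.80-fold in WT tumors, and the SD of log2 CPM in Nr2e3-/- tumors (1.43) exceeded that of 98.7% of the genes tested. Its log2 fold change was 2.01 (standard error 0.62, 95% interval 0.54 to 3.48, unadjusted p = 0.0141, adjusted p = 0.150 from edgeR). Over the alternatives the log2 fold change lay between 1.38 and 2.48 and the adjusted p-value between 0.0710 and 0.389.

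Across the Nr2e3-/- tumors, Cish and Socs2 had the same order, lowest in replicate 1 and highest in replicate 2, and Bcl6 had the reverse order. Their places relative to the WT tumors differed. Bcl6 was highest and Cish and Socs2 were lowest in replicate 1. In replicate 3, Bcl6 and Socs2 were above and Cish below all WT tumors. Replicate 2 had Bcl6 and Cish inside the WT range and the highest Socs2 of all libraries. Igf1, also a STAT5 target, had the order of Cish and Socs2 over the same 3 tumors but stayed within a 1.35-fold range. Lymphocytes also express Bcl6, Cish and Socs2, and 8 lymphocyte markers summed to 17.1, 30.9 and 19.2 CPM in WT and to 13.0, 38.3 and 16.9 CPM in Nr2e3-/- tumors. Bcl6 was highest in the library where this sum was lowest, and Socs2 was highest in the library where it was highest. Cish was lowest where the sum was lowest, but its highest value was in WT replicate 3. Within the Nr2e3-/- tumors Cish and Socs2 had the order of the sum and Bcl6 the reverse. Most of the sum was Ptprc, which all leukocytes express (9.47 CPM in Nr2e3-/- replicate 1 and 32.9 CPM in replicate 2), and the part of lymphocytes in the 3 genes was not tested.

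**Figure D2:**
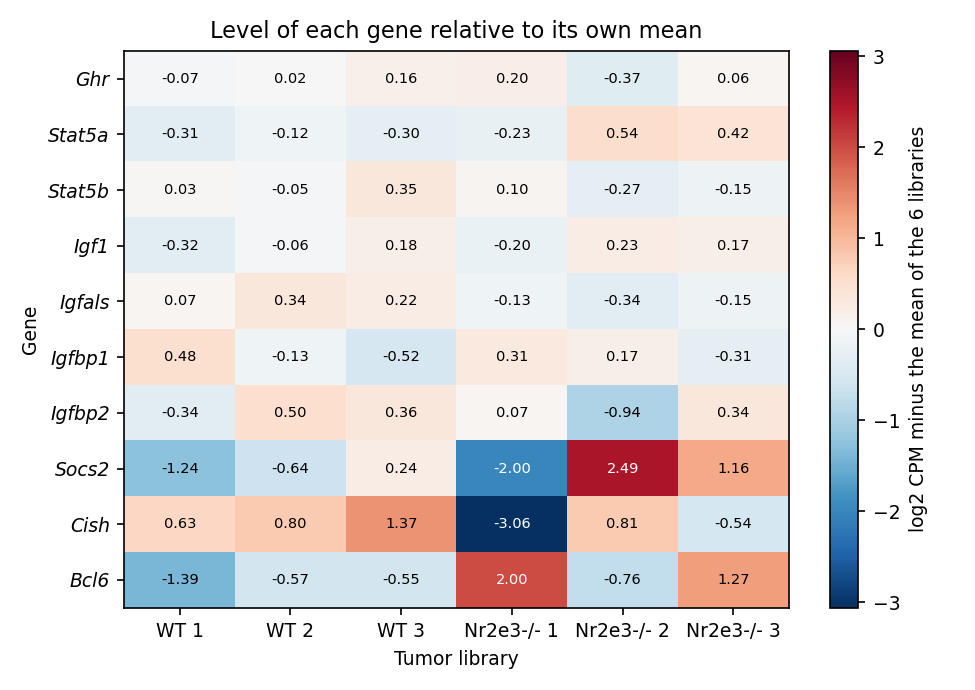
Log2 CPM of each gene minus its mean over the 6 libraries (colour and number in each cell, genes in rows, tumor libraries in columns). The widest departures are those of Cish in Nr2e3-/- replicate 1 (-3.06) and of Socs2 in Nr2e3-/- replicate 2 (2.49).

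Without Nr2e3-/- replicate 1, 3 of the 10 genes passed an adjusted p-value of 0.05 with edgeR, where 21.8% of all genes tested did. They were Stat5a at 0.74 on the log2 scale (edgeR adjusted p = 0.0120), Socs2 with 2.41 (adjusted p = 0.0209) and Igfals with -0.45 (adjusted p = 0.0398). Each of the other 5 fits that left out a library called 0 of the 10. Nr2e3-/- replicate 1 had the smallest library, and in Stat5a it lay among the WT tumors while in Socs2 it lay below them.

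**Figure D3:**
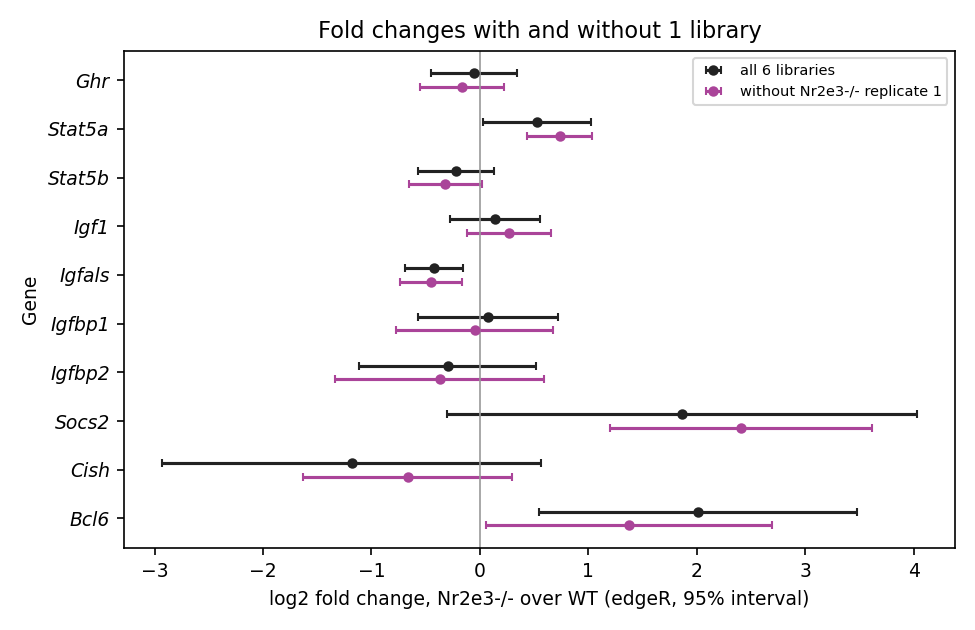
Log2 fold change of Nr2e3-/- over WT for each gene (points) with its 95% interval from edgeR (bars), for all 6 libraries in black and without Nr2e3-/- replicate 1 in purple. The interval of Socs2 runs from -0.31 to 4.03 with all libraries and from 1.20 to 3.62 without that library, while that of Igfals is short in both fits.

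Other genes of growth hormone and IGF signaling were taken from a list of 29, of which 26 passed the filter and Pappa, Pappa2 and Stc2, with at most 9 counts in any library, did not. None of the 26 passed an adjusted p-value of 0.05 with edgeR or limma-voom. DESeq2, in which all 29 were fitted, called 2 higher and 1 lower, where it called 4.93% and 3.07% of all genes. With edgeR, 5 of the 26 were higher and 2 lower at an unadjusted p-value under 0.05, where 11.8% of all genes were higher and 9.72% lower. Their median log2 fold change was -0.10. Insr, the insulin receptor, was measured at 218, 204 and 215 CPM in WT and at 155, 158 and 144 CPM in Nr2e3-/- tumors, with all Nr2e3-/- tumors below all WT tumors. The difference on the log2 scale was -0.48 (standard error 0.10, edgeR adjusted p = 0.0963). Ptpn1, a phosphatase that acts on JAK2 and the insulin receptor, stood at 1.59 on that scale (edgeR adjusted p = 0.130), with 143 and 130.4 CPM in Nr2e3-/- replicates 2 and 3 and 30.6 to 38.7 CPM in the other 4 libraries. Jak2, the receptor's kinase, had a log2 fold change of 0.64 (edgeR adjusted p = 0.293), with 65.7 and 39.5 CPM in Nr2e3-/- replicates 2 and 3 above all other libraries. Jak2 lay between 0.20 and 0.94 over the alternatives, the highest without Nr2e3-/- replicate 1 (edgeR adjusted p = 0.0243). Igf1r and Igf2, which hepatocytes hold at low levels, reached at most 5.10 and 1.39 CPM and had log2 fold changes of -0.11 and -0.15 (adjusted p = 0.808 and 0.813).

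Socs3 and Socs1, inhibitors of JAK kinases that inflammatory cytokines induce, were measured beside Socs2. Socs3 was at 11.7, 9.85 and 10.7 CPM in WT and at 5.30, 96.5 and 54.0 CPM in Nr2e3-/- tumors, and Socs1 was at most 3.45 CPM. Nr2e3-/- replicates 2 and 3 were the highest and replicate 1 the lowest library for both genes, as for Socs2. For Socs1 that lowest value was 0.0662 CPM, under the 0.195 CPM of 3 counts in that library, so its rank lies at the limit of counting. On the log2 scale Socs3 differed by 2.28 (standard error 0.82, edgeR adjusted p = 0.180) and Socs1 by 1.26 (standard error 0.90, adjusted p = 0.435). Over the alternatives Socs3 lay between 1.48 and 2.82 and Socs1 between 0.33 and 1.79. Both were highest without Nr2e3-/- replicate 1, where they passed (edgeR adjusted p = 0.00193 for Socs3 and 0.0441 for Socs1). The 9 acute phase genes of a list, which such cytokines induce, summed to 3192, 4739 and 2636 CPM in WT and to 3500, 10370 and 8419 CPM in Nr2e3-/- tumors. Their sum was above all WT tumors in the same 2 libraries, and most of it in Nr2e3-/- replicate 1 was Hp (2479 CPM). For 5 of the 9 genes, all Nr2e3-/- tumors, replicate 1 included, lay above all WT tumors, against 13.9% of all genes tested. Saa1 was 1 of them, at 138 CPM in Nr2e3-/- replicate 1 and at most 49.3 CPM in WT. The part of the acute phase genes in the values of Socs2 and Socs3 was not tested. By the rule of the smallest root mean square difference between centred log2 CPM over the 6 libraries, the genes most like Socs2 were Tgm1 (0.49), Socs3 (0.53) and Rab30 (0.53). For Igf1 they were Gm10677, Nek8 and Hipk3, each at 0.05. The same measure was taken for Cish and Bcl6 after their values had been seen. It placed Myc (0.56), Tmem194b (0.57) and Onecut1 (0.65) nearest to Cish, and Mup2 (0.51), Nr0b2 (0.54) and Gulp1 (0.57) nearest to Bcl6.

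Genes whose sex bias in liver follows the pattern of growth hormone release were examined as 2 lists. All 20 male-biased genes were tested, 19 of them with a log2 fold change above 0 and 1, Cyp2u1, below 0 (-0.35). Over the alternatives 16 to 20 were above 0, the fewest without WT replicate 2, where the median was 0.57. None passed an adjusted p-value of 0.05 with edgeR or limma-voom. With DESeq2 10 did, all of them higher, where it called 4.93% of all genes higher. At an unadjusted p-value under 0.05 with edgeR, 13 were higher and 0 lower, where 11.8% of all genes tested were higher and 9.72% lower. For 12 of the list, all Nr2e3-/- tumors lay above all WT tumors, against 13.9% of all genes tested. The list was chosen with earlier results of these data known, so its counts beside those of all genes are a description. The median log2 fold change was 0.77, beside 0.01 for all genes. Cyp7b1, a hydroxylase of oxysterols and steroids, was measured at 211, 129 and 203 CPM in WT and at 444, 527 and 794 CPM in Nr2e3-/- tumors (log2 fold change 1.70, standard error 0.28, adjusted p = 0.0912 from edgeR). Mup7, a major urinary protein gene, was measured at 377, 216 and 262 CPM in WT and at 1680, 974 and 2795 CPM in Nr2e3-/- tumors (log2 fold change 2.67, standard error 0.41, adjusted p = 0.0844). The glucuronosyltransferases Ugt2b38 and Ugt2b1 had log2 fold changes of 3.52 and 0.80 (adjusted p = 0.0930 for both). Mup and Ugt2b genes have near-identical relatives, so their reads may be split among them with uncertainty. All 3 Nr2e3-/- tumors, replicate 1 included, lay above all WT tumors for these 4 genes. They were named for the smallest p-values of the list, which favours groups that do not overlap, so no contrast with Cish, Socs2 and Bcl6 is drawn. In other genes of the list, such as Cyp2d9 and Elovl3, the groups overlapped.

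Of 21 female-biased genes, 14 passed the filter, since 7 such as Sult2a1 and A1bg were nearly silent in these male tumors with at most 29 counts in any library. Log2 fold changes were above 0 for 3 and below 0 for 11, with a median of -0.43, which was -0.0288 with DESeq2 and -0.0092 without the filter, where all 21 genes entered. None passed an adjusted p-value of 0.05 with edgeR or limma-voom, while DESeq2 called 1 higher and 3 lower, where it called 4.93% and 3.07% of all genes. With edgeR, 1 was higher and 4 were lower at an unadjusted p-value under 0.05, against 11.8% and 9.72% of all genes tested. The higher one was Sult1e1, the estrogen sulfotransferase, at 0.169 to 0.277 CPM in WT and 1.52, 5.61 and 3.30 CPM in Nr2e3-/- tumors. Sult1e1 passed the filter on low counts only through the Nr2e3-/- tumors, where it was high, so its difference is a description. Abcd2, a peroxisomal transporter of fatty acids, was measured at 87.3, 139 and 81.8 CPM in WT and at 36.2, 41.3 and 23.4 CPM in Nr2e3-/- tumors (log2 fold change -1.61, standard error 0.28, edgeR adjusted p = 0.0930). Acot3, a peroxisomal thioesterase, and Cyp2b9, a cytochrome P450, had log2 fold changes of -2.38 and -0.77 (adjusted p = 0.0984 and 0.137), each with all Nr2e3-/- tumors below all WT tumors. The summed level of the list overlapped between genotypes, from 468 to 1718 CPM in WT and from 615 to 1525 CPM in Nr2e3-/- tumors.

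**Figure D4:**
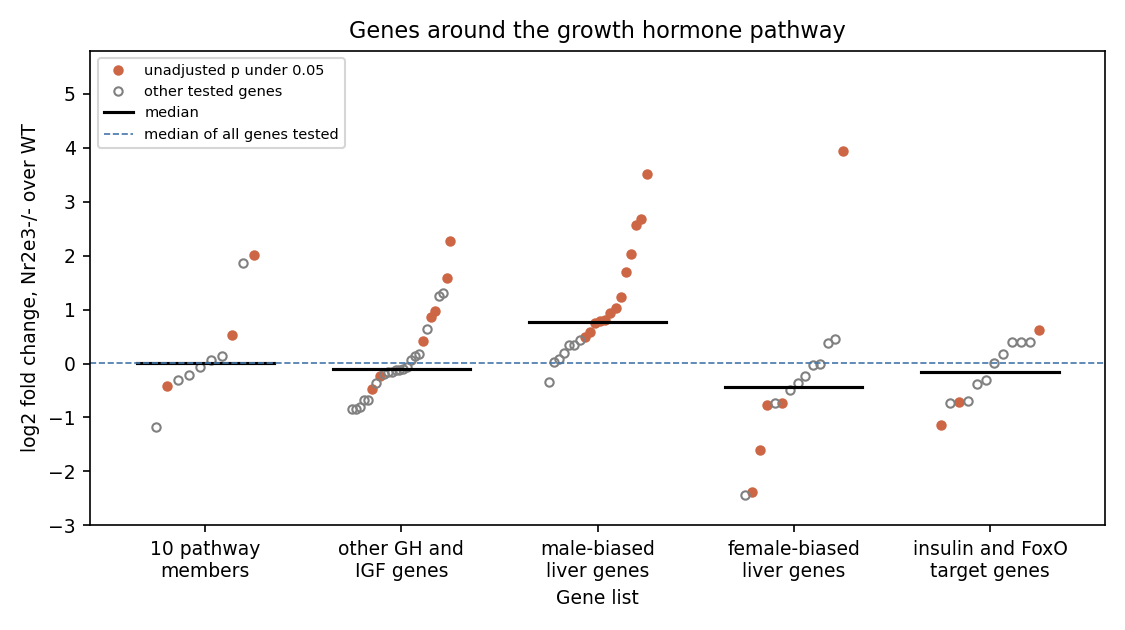
Log2 fold change of Nr2e3-/- over WT (vertical axis) of each tested gene in 5 lists (horizontal axis), filled where the unadjusted edgeR p-value is under 0.05, with black bars at list medians and a dashed line at the median of all genes tested. The male-biased list has its median at 0.77 with 19 of 20 genes above 0 (16 without WT replicate 2), and the 10 pathway members have theirs at 0.01. Members and lists were chosen with earlier results of these data known.

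Markers of other cell types were summed per library because they can move with these genes. Counts of markers below are at an unadjusted p-value under 0.05 with edgeR, which 11.8% of all genes passed as higher and 9.72% as lower. Bile duct markers summed to 57.3 to 119 CPM in WT and to 69.1, 429 and 186 CPM in Nr2e3-/- replicates 1, 2 and 3. Of the 5 tested, 2 were higher (Epcam and Spp1), and Cftr had no more than 11 counts. Most of the sum in Nr2e3-/- replicate 2 was Spp1, at 410 CPM, and Epcam was at 10.95 CPM. Krt7, Krt19 and Sox9 were at 0.520, 0.668 and 6.09 CPM in that library, none of them above the highest WT value. Macrophage markers summed to 294 to 370.2 CPM in WT and 252 to 649.8 CPM in Nr2e3-/- tumors, with 0 of 7 under that p-value and Nr2e3-/- replicate 2 again the highest. Of the lymphocyte list no count is given, since genes such as Cd79a (0.382 to 0.576 CPM in WT and 0.162 to 0.199 CPM in Nr2e3-/- tumors) and Ms4a1 (0.614 to 0.846 and 0.108 to 0.397 CPM) passed the filter through the WT tumors, where they were high. Stellate and fibroblast markers, 0 of 8, summed to 351 to 434 CPM in WT and 216 to 393 CPM in Nr2e3-/- tumors. Endothelial markers had Lyve1 higher and Kdr lower among 7, and their sums were 335 to 348 CPM in WT and 292 to 352 CPM in Nr2e3-/- tumors. Red cell markers, 1 of 5 higher, summed to 142 to 202 CPM in WT and 229 to 322 CPM in Nr2e3-/- tumors. Hba-a1 and Hba-a2 had the same value in every library, so they do not count as 2 separate measurements, and both enter this sum. Of 5 adipocyte markers 2 were tested, with Fabp4 higher and Plin1 at 0 counts in all libraries, and sums were 32.8 to 86.2 CPM over the 6 libraries. Hepatocyte markers had 2 of 8 higher (Hnf4a and Serpina1c), and 7 of 9 acute phase genes were higher. No gene of these lists passed an adjusted p-value of 0.05 with edgeR on all 6 libraries. DESeq2 called 5 acute phase genes, 1 bile duct marker, 2 endothelial markers and 1 adipocyte marker, where it called 4.93% of all genes higher and 3.07% lower. Without Nr2e3-/- replicate 1, where 21.8% of all genes passed, edgeR called 8 of the 9 acute phase genes higher (Saa1 among them, adjusted p = 0.00156) and, of the bile duct markers, Epcam (adjusted p = 0.00808) and Spp1 (adjusted p = 0.0266). The same fit called 4 of 8 stellate and fibroblast markers lower, 1 hepatocyte marker (Hnf4a) and both adipocyte markers higher, and of the endothelial markers Lyve1 higher and Kdr lower. The part of cell makeup in the values of Socs2, which was highest in the library with the highest Spp1 level and macrophage sum, was not tested.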

How the data were processed

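RNA from liver tumors of 3 WT and 3 Nr2e3-/- mice had been made into TruSeq libraries, and the authors aligned single-end reads to mm10 (GRCm38) with TopHat and deposited FeatureCounts read counts per gene, without normalization. Versions, annotation and strand setting are not given in the sources used here. A normalized table and the authors' DESeq2 comparison (fold changes and p-values) were not used. Libraries were grouped by their titles. Dose and age at injection came from the paper's methods, and the time point of the sequenced tumors from a figure legend of the paper.

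The deposited counts were fitted in R 4.3.3 using edgeR 4.0.16 (filterByExpr with minimum count 10 and minimum total count 15, TMM, quasi-likelihood F test, two-sided, Benjamini-Hochberg over 13572 genes). Standard errors were derived from the F statistic, and 95% intervals from its degrees of freedom. Log2 CPM used a prior count of 2. Depth was 15376261 to 28690279 counts. P-values set the genotype difference against the spread between libraries of the same genotype. In that spread, differences between mice and between tumors of a mouse cannot be told apart. Alternatives were RLE and upper quartile normalization, DESeq2 1.42.0, limma-voom (limma 3.58.1), 2 other filters, the replicate number as a block and leaving out each library. The pipeline was tested on simulated data. Positions came from RefSeq, and exon lengths and overlaps from GENCODE M21, all on GRCm38.

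The members and lists were chosen with earlier results of these data known, and the lists (other pathway genes, male-biased, female-biased, insulin and FoxO targets, acute phase, hepatocyte, bile duct, macrophage, lymphocyte, stellate and fibroblast, endothelial, red cell and adipocyte markers) were drawn from general knowledge of these genes. All members were named, and from each other pathway list the 4 genes with the smallest p-value, with Jak2, Socs1, Socs3, Igf1r and Igf2, and a gene that this rule names is not reported here. The macrophage marker Adgre1 was not analysed here.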

Additional observations from a re-analysis of the deposited data

How the results depend on the processing

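The count of members with an adjusted p-value under 0.05 was 0 in 12 of 13 alternatives, and 0 to 3 over the fits that left out a library. Over those fits, 0 to 3022 of all genes were called (main 13), 0 to 10 of the other pathway genes, 0 to 9 male-biased and 0 to 5 female-biased genes, the highest of each without Nr2e3-/- replicate 1. Without Nr2e3-/- replicate 2, 2 male-biased genes were called. All genes called numbered 8 with upper quartile normalization, 7 with limma-voom, 7 with at least 10 counts in every library, 70 with no filter beyond 1 count, and 1096 with DESeq2. DESeq2 called 3 other pathway, 10 male-biased and 4 female-biased genes, and the fit without the filter called 2 male-biased and 2 female-biased genes. Signs turned for Ghr (0.01 without WT replicate 3, and up to 0.10, from a lowest value of -0.17, over the fits leaving out a library) and for Igfbp1 (-0.0052 with upper quartile normalization, and -0.13 to 0.39 over those fits). The median of the other pathway genes (-0.10) was 0.06 without WT replicate 2 and 0.0071 without Nr2e3-/- replicate 3, and that of the female-biased genes lay between -0.72 and -0.0092. The causes were not tested beyond the change each alternative makes. The log2 fold changes of the other 8 members kept their sign throughout.

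With the replicate number as a block, 0 genes were called in all and 0 members. Same-numbered WT and Nr2e3-/- libraries deviated together with correlations of -0.08, 0.22 and 0.02 across genes, so the numbers were not taken to pair the mice. Among the members, depth limits Cish most, with 36 counts in Nr2e3-/- replicate 1.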

Other observations

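Genes that insulin and the FoxO factors regulate in liver, a list of 12 that shares inputs with Igfbp1, had a median log2 fold change of -0.15 between Nr2e3-/- and WT tumors, with 6 above and 6 below 0. None passed an adjusted p-value of 0.05 with edgeR, and 1 was higher and 2 were lower at an unadjusted p-value under 0.05, where 11.8% of all genes tested were higher and 9.72% lower. Cited2, a coactivator partner, was measured at 14.3, 15.2 and 13.2 CPM in WT and at 27.7, 20.1 and 18.1 CPM in Nr2e3-/- tumors (log2 fold change 0.62, adjusted p = 0.133 from edgeR). Srebf1, the lipogenic transcription factor gene that insulin induces, was measured at 383, 312 and 279 CPM in WT and at 265, 113 and 65.3 CPM in Nr2e3-/- tumors (log2 fold change -1.14, adjusted p = 0.219). Ppargc1a and Sesn3 had log2 fold changes of -0.71 and -0.70 (adjusted p = 0.216 and 0.284). Srebf1 stood at -1.85 on the log2 scale once Nr2e3-/- replicate 1 was left out (edgeR adjusted p = 0.00778).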
